A study of Mus musculus and Homo sapiens with 27 samples.

Results

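The aminoacyl-tRNA synthetase genes of MC38 cells, a mouse colon carcinoma line, were followed through a labelling and capture procedure for RNA. They were taken by name, as 20 genes for the cytosolic enzymes and 15 genes for the mitochondrial enzymes, from a table of 56691 features. All 35 were found in the table and all 35 passed the low-count filter, which left 11676 genes tested. The series holds 27 libraries from MC38 and HEK293T cells that stably expressed an enzyme abbreviated LAP, located at a site abbreviated ERM, which is taken here to be the membrane of the endoplasmic reticulum (ER). The 9 MC38 libraries described here carry the tag 12G, which no source used here explains. Of these, 3 are Label_Enrich, meaning RNA of labelled cells after streptavidin capture. Another 3 are NonLabel_Enrich, captured RNA titled as unlabelled, for which no separate treatment is described. The last 3 are Label_Input, the part of the RNA from labelled cells that was set aside ahead of capture. Labelled cells received PA (an abbreviation of the labels) at 10 mM with the luciferase substrate furimazine at 50 µM, for 15 to 60 min. All groups came from LAP-expressing cells, and the labels do not say whether these were 1 clone, nor whether replicates were separate cultures. A p-value here therefore sets a group difference only against the spread among these libraries, which may be technical.

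An aminoacyl-tRNA synthetase joins an amino acid to the tRNAs that decode it, the step that fixes the meaning of each codon before the ribosome is reached. In mammals the cytosol and the mitochondrion are served by separate nuclear genes for most amino acids, and the mitochondrial enzymes are made in the cytosol with an import sequence. Neither kind carries the signal peptide that brings an mRNA to the ER, so these mRNAs are not classical ER cargo. Several cytosolic enzymes are held in a multisynthetase complex by scaffold proteins, and several of the genes are induced by the transcription factor ATF4 when amino acids are short.

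Library totals ran from 13127181 to 18614808 counts, of which 1686731 to 6022322 lay outside the 2 most abundant features, and single member counts ran from 13 to 10327. Counts outside these 2 features differed by group. They were 4509948 to 6022322 in Label_Enrich, 3660109 to 3869477 in NonLabel_Enrich and 1686731 to 2058350 in Label_Input. Label_Input was thus the shallowest group for other genes, and the part of this in the comparisons was not tested. Levels are CPM, read counts divided by a library size that TMM (trimmed mean of M values) factors correct, so a gene is higher or lower relative to the bulk of tested genes and not in amount of captured RNA. Values after ± are SD over 3 libraries for levels and SE for log2 fold changes. In bulk RNA, fewer cells of a type and less RNA per cell cannot be told apart. Of 9 epithelial marker genes, all were under 1 CPM on average, and Epcam, Krt20 and Cdx2 were at 0 counts in every library. Their summed level was 0.877 to 1.04 CPM in Label_Enrich, 1.20 to 1.46 CPM in NonLabel_Enrich and 1.40 to 1.72 CPM in Label_Input. Of 6 blood-lineage markers, 5 were under 1 CPM on average (Cd3e, Hbb-bs and Lyz2 among them at 0 counts), and the list summed to 1.45 to 1.89 CPM in Label_Enrich, 1.91 to 2.28 CPM in NonLabel_Enrich and 2.00 to 2.64 CPM in Label_Input. Of 5 mesenchymal markers, Vim and Sparc were the most abundant in Label_Input, at 660 ± 17.6 and 222 ± 4.48 CPM (SD, n = 3). The lowest of the 5 averaged 18.9 CPM over all libraries. The colon origin of the line was thus not visible in its epithelial markers, which were nearly absent in every group.

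The cytosolic enzymes formed the abundant group. Summed over 20 genes, they stood at 1421 ± 1.91 CPM in Label_Enrich, 1369.7 ± 15.5 CPM in NonLabel_Enrich and 1182 ± 7.10 CPM in Label_Input (SD, n = 3 each), with no overlap between groups. Aars and Vars, the most abundant of the 20, weighed most in this sum. Aars averaged 347, 354 and 256 CPM and Vars 220, 176 and 130 CPM in the same order of groups. The sum therefore does not describe the 20 genes one by one. The 15 mitochondrial genes summed to 104 ± 0.919 CPM in Label_Enrich, 98.7 ± 2.93 CPM in NonLabel_Enrich and 99.3 ± 5.98 CPM in Label_Input. Both captured groups overlapped Label_Input, and Label_Enrich lay above NonLabel_Enrich without overlap.

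Per kilobase of exon, levels in Label_Input spanned a wide range among the cytosolic genes. Aars, the alanyl-tRNA synthetase gene, was highest at 27.6 CPM per kb, ahead of Vars (valine) at 23.2, Kars (lysine) at 21.7, Nars (asparagine) at 18.9 and Gars (glycine) at 16.8 CPM per kb. Qars, for glutamine, was the lowest cytosolic gene at 2.84 CPM per kb, and the cytosolic median was 8.66. The mitochondrial genes ran from 0.357 CPM per kb for Nars2 to 2.75 for Iars2 (isoleucine), with a median of 0.980. In each of 16 pairs of a cytosolic and a mitochondrial gene for the same amino acid the cytosolic gene was higher per length, by 2.05 times for Yars over Yars2 (tyrosine) to 53.0 times for Nars over Nars2, with a median of 11.1 times. These levels per length are CPM divided by union exon length and ignore which transcript is made.

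Comparing Label_Enrich with Label_Input asks how captured RNA of labelled cells differs from the RNA they held before capture. Of the 20 cytosolic genes, 8 rose and 1 fell in Label_Enrich (edgeR adjusted p under 0.05), and 11 did not pass. That is 45.0% called, beside 28.7% of all tested genes, of which 14.2% were higher and 14.6% lower. The genes that rose serve valine (Vars), alanine (Aars), leucine (Lars), methionine (Mars1), glutamate and proline (Eprs), threonine (Tars), serine (Sars) and asparagine (Nars). The cytosolic median log2 fold change was 0.07, with a range from -0.34 to 0.75, beside -0.02 for all tested genes. Its quartiles were -0.05 and 0.28. Libraries of the groups did not overlap for 10 of 20 cytosolic genes, beside 39.6% of all tested genes.

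**Figure D1:**
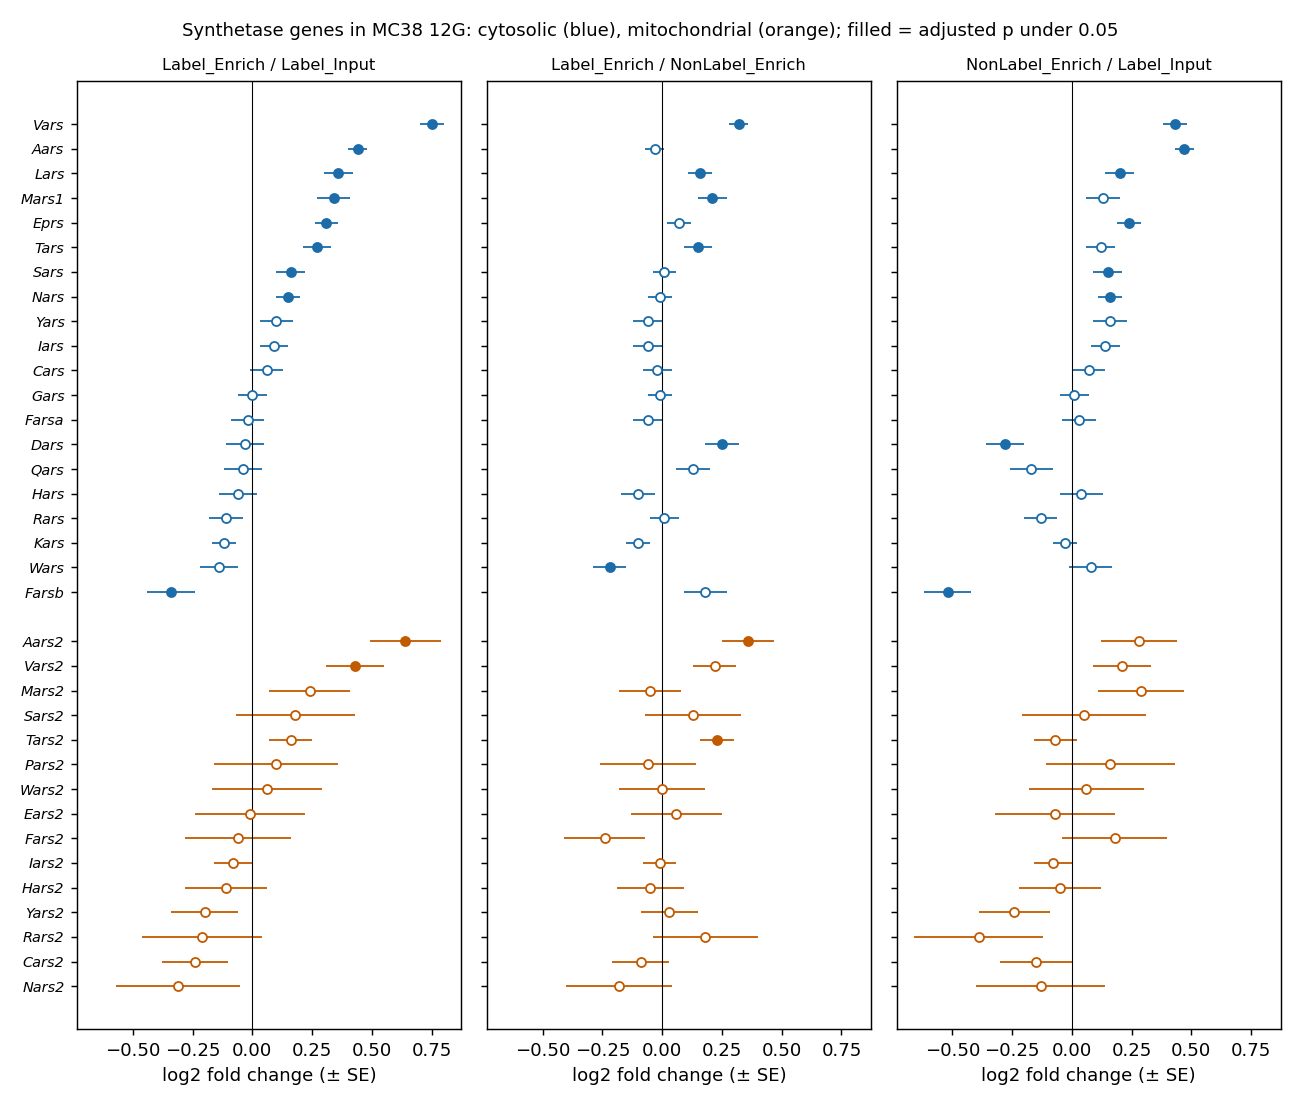
Log2 fold change of each of 35 synthetase genes in 3 comparisons, with bars of 1 SE; cytosolic and mitochondrial genes are drawn apart and filled points passed the edgeR test at an adjusted p under 0.05. Vars is the highest cytosolic gene in Label_Enrich against Label_Input at 0.75, and Farsb is the lowest cytosolic gene in NonLabel_Enrich against Label_Input at -0.52.

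Vars, which encodes the cytosolic valyl-tRNA synthetase, had 221, 219 and 219 CPM in Label_Enrich, 179, 177 and 173 CPM in NonLabel_Enrich and 123, 129 and 139 CPM in Label_Input. The 3 groups did not overlap, and the libraries were ordered Label_Enrich, NonLabel_Enrich, Label_Input. Vars was 1.68 times higher in Label_Enrich than in Label_Input, or 0.75 ± 0.05 on the log2 scale (edgeR adjusted p = 7.58e-22). No other cytosolic gene had as large a value in any of the 3 comparisons.

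Aars had 348, 348 and 346 CPM in Label_Enrich, 368, 351 and 344 CPM in NonLabel_Enrich and 264, 253.5 and 251 CPM in Label_Input. The captured groups overlapped each other and lay above Label_Input. The log2 fold change of Label_Enrich over Label_Input was 0.44 ± 0.04 (edgeR adjusted p = 1.69e-13). Aars shares 1326 exon bases, 14.3% of its exon length, with Exosc6 on the same strand. How reads of the shared bases were counted is not given, and their effect on the Aars count was not examined.

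Lars, the cytosolic leucyl-tRNA synthetase and a member of the multisynthetase complex, had 61.3, 62.7 and 62.3 CPM in Label_Enrich, 57.2, 54.9 and 54.1 CPM in NonLabel_Enrich and 48.5, 48.9 and 47.6 CPM in Label_Input. The 3 groups again did not overlap. Its log2 fold change over Label_Input was 0.36 ± 0.06 (edgeR adjusted p = 8.86e-07). Mars1, the methionine enzyme of the same complex, had 38.2, 40.0 and 36.9 CPM in Label_Enrich, 33.4, 34.0 and 32.1 CPM in NonLabel_Enrich and 31.9, 29.5 and 29.5 CPM in Label_Input. Its groups did not overlap either, and its log2 fold change over Label_Input was 0.34 ± 0.07 (edgeR adjusted p = 6.32e-05).

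Eprs, which encodes the fused glutamyl-prolyl enzyme, rose by 0.31 ± 0.05 on the log2 scale, and Tars by 0.27 ± 0.06. Sars and Nars rose less, by 0.16 ± 0.06 (edgeR adjusted p = 0.0234) and 0.15 ± 0.05 (edgeR adjusted p = 0.0273). The call for Nars was lost without Label_Enrich replicate 2 or 3 or Label_Input replicate 1 or 3, with an edgeR adjusted p between 0.0644 and 0.256. The call for Sars was lost without Label_Enrich replicate 1 or Label_Input replicate 3 (edgeR adjusted p = 0.116 and 0.148), and both were lost in the shallower MC38 3G counts of the same libraries (edgeR adjusted p = 0.174 for Nars and 0.0983 for Sars).

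The cytosolic gene that fell was Farsb, which encodes the beta subunit of the phenylalanyl enzyme. It had 12.5, 13.1 and 14.8 CPM in Label_Enrich, 12.5, 10.6 and 12.2 CPM in NonLabel_Enrich and 17.6, 18.2 and 15.2 CPM in Label_Input. All 3 Label_Input libraries lay above all 6 captured libraries. The log2 fold change of Label_Enrich over Label_Input was -0.34 ± 0.10 (edgeR adjusted p = 0.00518), and the call was lost with no low-count filter, at -0.23 (edgeR adjusted p = 0.117). Its partner Farsa, the alpha subunit, was at -0.02 ± 0.07 (edgeR adjusted p = 0.848), so the genes of the 2 subunits differed in their values, a difference that was not tested. Farsb shares 248 exon bases, 9.47% of its exon length, with Sgpp2 on the opposite strand, and whether counting used strand is not given.

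Kars, for lysine, was the most abundant cytosolic gene that did not pass. It had 87.0, 88.0 and 91.4 CPM in Label_Enrich, 97.7, 89.6 and 97.8 CPM in NonLabel_Enrich and 97.3, 99.7 and 93.6 CPM in Label_Input. Label_Enrich lay below Label_Input in every library, at -0.12 ± 0.05 on the log2 scale (edgeR adjusted p = 0.0606), and the gene passed under 4 of 17 alternative settings. The genes of glycine (Gars), tryptophan (Wars), tyrosine (Yars), isoleucine (Iars), glutamine (Qars), arginine (Rars), histidine (Hars), cysteine (Cars), aspartate (Dars) and the phenylalanine alpha subunit (Farsa) did not pass either, with log2 fold changes between -0.14 and 0.10. For Gars, which serves both cytosol and mitochondrion, the 95% interval of the log2 fold change was -0.11 to 0.12.

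**Figure D2:**
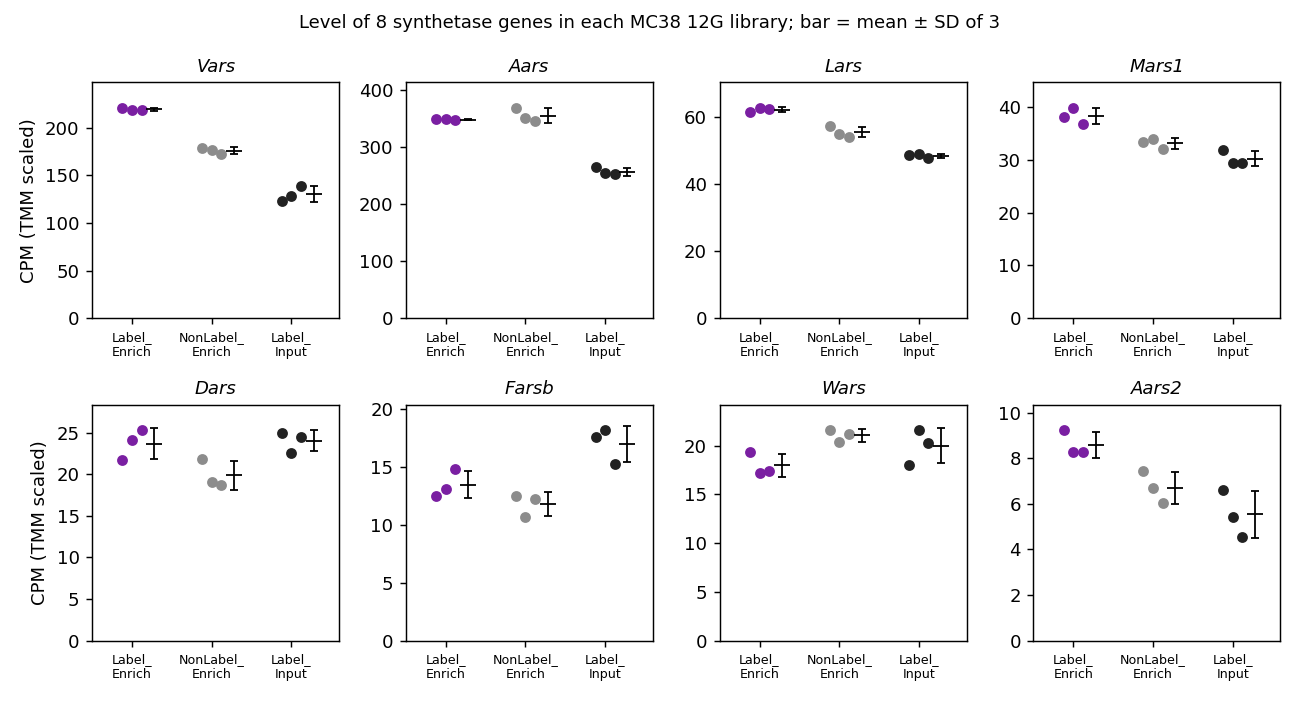
Level in CPM (linear axis from 0) of 8 synthetase genes in each of 9 MC38 libraries; points are libraries and the bar beside each group is the mean ± SD of 3. The 3 groups of Vars, Lars and Mars1 do not overlap, while in Dars Label_Enrich and NonLabel_Enrich overlap.

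Among the 15 mitochondrial genes, 2 rose and 0 fell in Label_Enrich relative to Label_Input, which is 13.3% called beside the 28.7% of all tested genes. Their median log2 fold change was -0.01. The median SE was 0.17 in this list and 0.06 in the cytosolic list. Whether the lists differed was not tested.

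Aars2, the mitochondrial alanyl-tRNA synthetase, had 9.24, 8.26 and 8.26 CPM in Label_Enrich, 7.43, 6.70 and 6.02 CPM in NonLabel_Enrich and 6.61, 5.43 and 4.56 CPM in Label_Input. Label_Enrich lay above both other groups, which overlapped each other. Its log2 fold change over Label_Input was 0.64 ± 0.15 (edgeR adjusted p = 0.000386). Vars2, the mitochondrial valine enzyme, had 12.6, 11.9 and 10.7 CPM in Label_Enrich, 10.7, 10.0 and 9.60 CPM in NonLabel_Enrich and 8.30, 8.29 and 9.59 CPM in Label_Input. Label_Enrich lay above Label_Input in every library and overlapped NonLabel_Enrich. Vars2 rose over Label_Input by 0.43 ± 0.12 on the log2 scale (edgeR adjusted p = 0.00317), a call that was lost in the 3G counts (edgeR adjusted p = 0.0583). Vars2 shares 465 exon bases, 8.52% of its exon length, with Gm20483 on the opposite strand.

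Iars2, the most abundant mitochondrial gene, had 22.2, 23.1 and 24.3 CPM in Label_Enrich, 23.2, 23.5 and 23.2 CPM in NonLabel_Enrich and 29.3, 21.3 and 22.7 CPM in Label_Input. The groups overlapped, with 1 high Label_Input library, and the log2 fold change of Label_Enrich over Label_Input was -0.08 ± 0.08 (edgeR adjusted p = 0.484). Iars2 shares 2034 exon bases, 22.9% of its exon length, with Rab3gap2 on the opposite strand, and whether counting used strand is not given. The other 12 mitochondrial genes had log2 fold changes between -0.31 (Nars2) and 0.24 (Mars2) and did not pass.

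Comparing Label_Enrich with NonLabel_Enrich asks how captured RNA differs with and without labelling. Of the cytosolic genes, 5 were higher in Label_Enrich (Vars, Dars, Mars1, Lars and Tars) and 1 was lower (Wars). That is 30.0% called, beside 20.1% of all tested genes, of which 10.4% were higher and 9.63% lower. The cytosolic median was 0.00, as was that of all tested genes, and the range was -0.22 to 0.32. Of the mitochondrial genes, 2 were higher (Aars2 and Tars2) and 0 lower, or 13.3%, with a median of 0.00. The groups did not overlap for 7 cytosolic and 2 mitochondrial genes, beside 34.6% of all tested genes. Without Label_Enrich replicate 2 or NonLabel_Enrich replicate 3 the cytosolic count called higher was 2, and without Label_Enrich replicate 3 it was 3. The cytosolic count called lower was 0 without Label_Enrich replicate 2 or 3 or NonLabel_Enrich replicate 1, and 2 without NonLabel_Enrich replicate 2. The mitochondrial count called higher was 0 without Label_Enrich replicate 1, and 1 without Label_Enrich replicate 2 or NonLabel_Enrich replicate 1 or 3.

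Vars again had the largest cytosolic difference, with no overlap between the libraries given above, and was 1.25 times higher in Label_Enrich than in NonLabel_Enrich, or 0.32 ± 0.04 on the log2 scale (edgeR adjusted p = 4.62e-08). Dars, the aspartate enzyme of the multisynthetase complex, had 21.7, 24.1 and 25.3 CPM in Label_Enrich, 21.9, 19.0 and 18.7 CPM in NonLabel_Enrich and 25.01, 22.6 and 24.5 CPM in Label_Input. Label_Enrich replicate 1 overlapped NonLabel_Enrich, and the other Label_Enrich libraries lay above it. The log2 fold change was 0.25 ± 0.07 (edgeR adjusted p = 0.00553), and the call was lost without Label_Enrich replicate 3 or NonLabel_Enrich replicate 3 (edgeR adjusted p = 0.0512 and 0.0585).

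Mars1 and Lars, whose Label_Enrich libraries all lay above NonLabel_Enrich, rose by 0.21 ± 0.06 (edgeR adjusted p = 0.00662) and 0.16 ± 0.05 (edgeR adjusted p = 0.0178) on the log2 scale. The Mars1 call was lost without Label_Enrich replicate 2 (edgeR adjusted p = 0.0611). The Lars call was lost without Label_Enrich replicate 2 or 3 or NonLabel_Enrich replicate 3, with an edgeR adjusted p between 0.0639 and 0.0793, and in the 3G counts. Tars, for threonine, rose by 0.15 ± 0.06 (edgeR adjusted p = 0.0369), a call lost without Label_Enrich replicate 1 or 2 or NonLabel_Enrich replicate 1 or 3, with an edgeR adjusted p between 0.0584 and 0.251. The Tars call was also lost in the 3G counts (edgeR adjusted p = 0.0847).

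Wars, the tryptophan enzyme, had 19.4, 17.1 and 17.4 CPM in Label_Enrich, 21.6, 20.3 and 21.2 CPM in NonLabel_Enrich and 18.03, 21.6 and 20.2 CPM in Label_Input. Label_Enrich lay below NonLabel_Enrich in every library and overlapped Label_Input. The log2 fold change was -0.22 ± 0.07 (edgeR adjusted p = 0.0152). This call was lost without Label_Enrich replicate 2 or 3 or NonLabel_Enrich replicate 1, with an edgeR adjusted p between 0.061 and 0.0901, and under 3 further settings. Aars, the most abundant gene that did not pass here, was at -0.03 ± 0.04 (edgeR adjusted p = 0.69).

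Aars2 rose over NonLabel_Enrich by 0.36 ± 0.11 on the log2 scale (edgeR adjusted p = 0.015), a call that was lost without Label_Enrich replicate 1 or NonLabel_Enrich replicate 3 (edgeR adjusted p = 0.112 and 0.119). Tars2, the mitochondrial threonine enzyme, had 19.0, 19.0 and 18.2 CPM in Label_Enrich, 15.3, 16.4 and 16.2 CPM in NonLabel_Enrich and 15.5, 15.7 and 19.0 CPM in Label_Input. Label_Enrich lay above NonLabel_Enrich in every library and overlapped Label_Input. Its log2 fold change over NonLabel_Enrich was 0.23 ± 0.07 (edgeR adjusted p = 0.0149), and the call was lost without Label_Enrich replicate 1 or 2 or NonLabel_Enrich replicate 1, with an edgeR adjusted p between 0.053 and 0.083, and in the 3G counts. Iars2 was at -0.01 ± 0.07 (edgeR adjusted p = 0.958).

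Comparing NonLabel_Enrich with Label_Input shows how the captured RNA titled as unlabelled differed from RNA before capture. Of the cytosolic genes, 6 were higher in NonLabel_Enrich (Aars, Vars, Eprs, Lars, Nars and Sars) and 2 were lower (Farsb and Dars). That is 40.0% called, beside 29.5% of all tested genes, of which 14.8% were higher and 14.7% lower. The cytosolic median was 0.10, beside -0.02 for all tested genes, and the groups did not overlap for 11 of 20 cytosolic genes, beside 38.8% of all tested genes. Of the mitochondrial genes, 0 were called in either direction, with a median of -0.05, a median SE of 0.18 and the largest values at -0.39 (Rars2) and 0.29 (Mars2).

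In this comparison Aars led, at 0.47 ± 0.04 on the log2 scale (edgeR adjusted p = 2.26e-14), followed by Vars at 0.43 ± 0.05 (edgeR adjusted p = 1.7e-11), Eprs at 0.24 ± 0.05 (edgeR adjusted p = 9.21e-05) and Lars at 0.20 ± 0.06 (edgeR adjusted p = 0.00901). The NonLabel_Enrich libraries of these 4 genes all lay above Label_Input. Eprs had 113, 116 and 114 CPM in Label_Enrich, 106, 113 and 108 CPM in NonLabel_Enrich and 95.9, 88.8 and 91.0 CPM in Label_Input. Nars and Sars rose by 0.16 ± 0.05 and 0.15 ± 0.06. The call of Nars was lost without NonLabel_Enrich replicate 3 or Label_Input replicate 1 or 3 (edgeR adjusted p = 0.0507, 0.218 and 0.0623), and that of Sars without NonLabel_Enrich replicate 1 or 2 or Label_Input replicate 3 (edgeR adjusted p = 0.073, 0.0719 and 0.184). Both were also lost with only the 2 groups compared (edgeR adjusted p = 0.0545 for Nars and 0.0736 for Sars). The same held in the 3G counts (edgeR adjusted p = 0.0556 for Nars and 0.206 for Sars).

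Farsb fell by 0.52 on the log2 scale (SE 0.10, edgeR adjusted p = 4.26e-05) and Dars by 0.28 (SE 0.08, edgeR adjusted p = 0.00801) in NonLabel_Enrich relative to Label_Input. For both genes every NonLabel_Enrich library lay below every Label_Input library. The Dars call was lost without Label_Input replicate 1 (edgeR adjusted p = 0.0607) and with no low-count filter. Kars was at -0.03 ± 0.05 (edgeR adjusted p = 0.758) and Iars2 at -0.08 ± 0.08 (edgeR adjusted p = 0.548), and neither passed.

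Across the 3 comparisons, which share groups and are therefore not independent, the members fell into a few patterns. Lars and Vars were called higher in all 3. Mars1, Tars and Aars2 rose in Label_Enrich relative to each of the other groups, without a call between NonLabel_Enrich and Label_Input. Aars, Eprs, Nars and Sars were called higher in both captured groups than in Label_Input, without a call between the captured groups. Farsb was called lower in both captured groups than in Label_Input. A further 9 cytosolic and 12 mitochondrial genes were called in no comparison, which does not show that they were equal between groups.

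Set side by side by amino acid, the cytosolic gene had the higher log2 fold change in 12 of 16 pairs in Label_Enrich against Label_Input, with a median difference of 0.11. It was higher in 8 of 16 pairs in Label_Enrich against NonLabel_Enrich, with a median of -0.02, and in 13 of 16 pairs in NonLabel_Enrich against Label_Input, with a median of 0.19. The pairs reuse Eprs and Fars2 and share all libraries, so these counts carry no test. In Label_Enrich against Label_Input the alanine and valine pairs were the ones with both genes called higher, at 0.44 for Aars with 0.64 for Aars2, and 0.75 for Vars with 0.43 for Vars2. In Label_Enrich against NonLabel_Enrich the threonine pair was the one with both genes called higher, at 0.15 for Tars and 0.23 for Tars2.

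**Figure D3:**
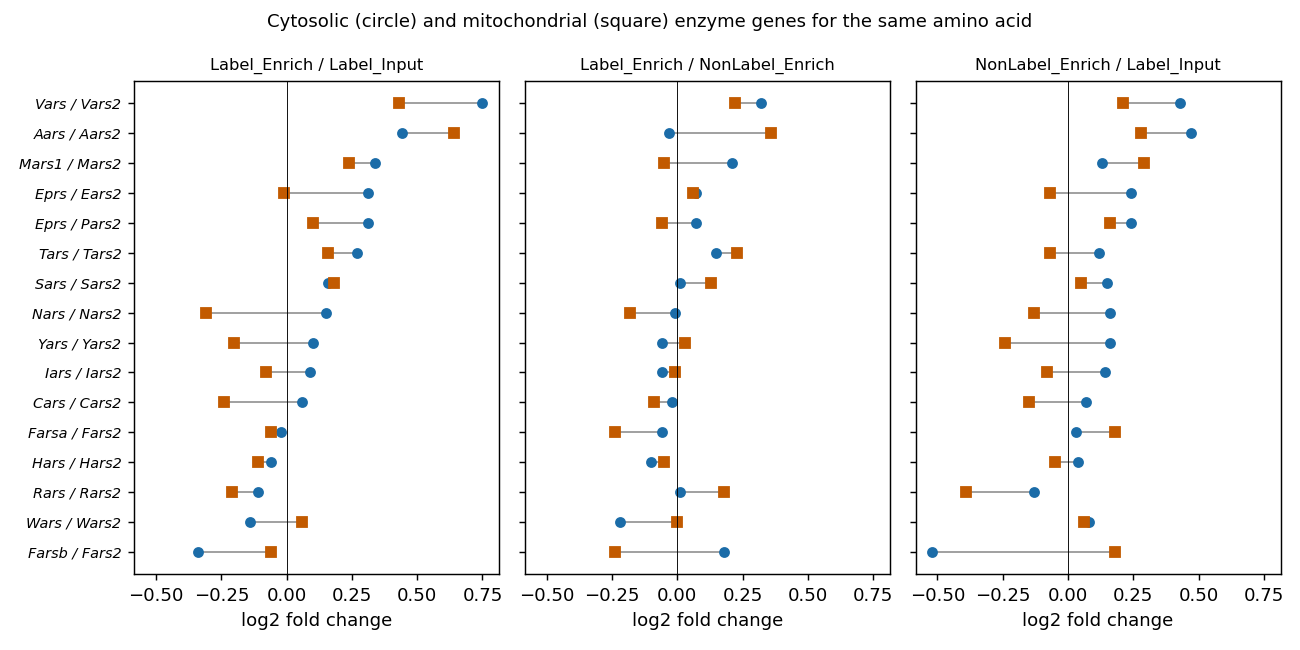
Log2 fold changes of the cytosolic (circle) and mitochondrial (square) enzyme genes for the same amino acid, joined by a line, in 3 comparisons; no error is drawn. In Label_Enrich against Label_Input the circle lies to the right in 12 of 16 pairs, and the asparagine pair is farthest apart, at 0.15 for Nars and -0.31 for Nars2.

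By membership of the multisynthetase complex, the 8 synthetase genes in it had 3 higher and 0 lower in Label_Enrich over Label_Input. The 12 cytosolic genes outside it, called free here, had 5 higher and 1 lower. In Label_Enrich against NonLabel_Enrich, the complex genes had 3 higher and 0 lower (Dars, Mars1 and Lars), and the free genes had 2 higher and 1 lower. In NonLabel_Enrich against Label_Input, the complex genes had 2 higher and 1 lower, and the free genes 4 higher and 1 lower. In each comparison 37.5% of the complex genes were called, and of the 12 free genes 6, 3 and 5 were called, beside 28.7%, 20.1% and 29.5% of all tested genes. The complex genes summed to 432 ± 3.67 CPM in Label_Enrich, 418 ± 1.80 CPM in NonLabel_Enrich and 397 ± 6.97 CPM in Label_Input (SD, n = 3). The free genes summed to 988 ± 4.60 CPM in Label_Enrich, 952 ± 14.3 CPM in NonLabel_Enrich and 785 ± 7.06 CPM in Label_Input. Aars and Vars are both free genes and weighed most in this sum. The median log2 fold change of the free genes was 0.08 in Label_Enrich against Label_Input. It was -0.01 in Label_Enrich against NonLabel_Enrich and 0.10 in NonLabel_Enrich against Label_Input.

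The 3 scaffold genes of the complex, Aimp1, Aimp2 and Eef1e1, encode no synthetase. Aimp1 had 16.4, 16.9 and 15.7 CPM in Label_Enrich, 16.5, 15.3 and 14.8 CPM in NonLabel_Enrich and 21.2, 18.6 and 21.9 CPM in Label_Input. Every captured library was below every Label_Input library, and Label_Enrich fell relative to Label_Input by 0.34 on the log2 scale (SE 0.08, edgeR adjusted p = 0.00128). Aimp2 fell by 0.55 (SE 0.14, edgeR adjusted p = 0.00199), while Eef1e1 was at -0.21 ± 0.15 (edgeR adjusted p = 0.33). In NonLabel_Enrich against Label_Input all 3 fell, with a median of -0.41. In Label_Enrich against NonLabel_Enrich 0 of 3 were called, beside 20.1% of all tested genes. Of all tested genes, 14.6% were lower in Label_Enrich and 14.7% in NonLabel_Enrich, each against Label_Input. Among those with a transcript of 3000 nt or less the shares were 22.0% and 23.6%. Relative to the trend of all tested genes with transcript length, Aimp1 was at -0.07 in Label_Enrich against Label_Input and -0.08 in NonLabel_Enrich against Label_Input. Aimp2 was at -0.30 and -0.08, and Eef1e1 at -0.18 and -0.51, in the same order. The transcripts of Aimp1 and Aimp2, were 1126 and 1185 nt long, and that of Eef1e1 was 2553 nt.

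The enzymes belong to a pair of unrelated catalytic classes. Class I (9 genes, Vars, Lars and Mars1 among them) had 3 higher and 0 lower in Label_Enrich over Label_Input, and class II (10 genes, Aars and Farsb among them) had 4 higher and 1 lower. Against NonLabel_Enrich, class I had 3 higher and 1 lower and class II had 2 higher and 0 lower. In NonLabel_Enrich against Label_Input, class I had 2 higher and 0 lower and class II had 3 higher and 2 lower. Class I had 33.3%, 44.4% and 22.2% called and class II 50.0%, 20.0% and 50.0%, beside 28.7%, 20.1% and 29.5% of all tested genes. Eprs, the gene of the fused enzyme, was placed in neither class. Gars and Kars, whose products also serve mitochondria, were called in no comparison.

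Genes that act after the synthetases were counted next. Cytosolic elongation factors and their subunits serve the use of charged tRNAs by the ribosome. Of 5 such genes, 0 rose and 2 fell in Label_Enrich relative to Label_Input. These were Eef1b2 at -0.41 ± 0.05 (edgeR adjusted p = 5.27e-10) and Eef1g at -0.24 ± 0.05 (edgeR adjusted p = 2.57e-05). In Label_Enrich against NonLabel_Enrich 1 was higher and 1 lower, and in NonLabel_Enrich against Label_Input 1 was higher and 3 lower. That is 40.0%, 40.0% and 80.0% called, beside 28.7%, 20.1% and 29.5% of all tested genes. Of 9 mitochondrial translation factor genes, 0 were called in any comparison, Tufm, the mitochondrial elongation factor Tu, being at -0.12 ± 0.08 (edgeR adjusted p = 0.291) in Label_Enrich against Label_Input. Of the 3 genes of the amidotransferase that makes mitochondrial glutaminyl-tRNA, Gatc fell in Label_Enrich relative to Label_Input (-0.45 ± 0.17, edgeR adjusted p = 0.0344) and Gatb was lower in Label_Enrich than in NonLabel_Enrich (-0.44 ± 0.15, edgeR adjusted p = 0.023). No difference between these lists and the synthetases was tested.

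Lars2, which names the mitochondrial leucyl-tRNA synthetase gene, is not among the 35. The feature named Lars2 had 57212 to 145265 CPM across the 9 libraries, far above each of the 35 members, and which RNAs its reads came from was not examined. Removing it and the most abundant feature before scaling left every member call of these comparisons in place.

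A known trigger of many synthetase genes is ATF4. The motif TGATGNAA, the C/EBP-ATF response element that ATF4 binds with C/EBP partners, was sought on both strands in promoters of 250 bases before to 50 bases after the gene start. The promoters are RefSeq's, on GRCm38.p6, and 26 of 35 members had one in the table used. It occurred in 5 of 13 cytosolic promoters (38.5%), in 0 of 13 mitochondrial promoters and in 1304 of 32851 promoters in all (3.97%). Cars, Hars, Lars, Nars, Rars, Vars, Wars, Hars2 and Pars2 were not in the table. Aars, Gars, Iars, Tars and Yars held it, and the last 4 of these are printed to show where the motif lies, since among the members it occurred in cytosolic promoters alone. Each runs 5′ to 3′ on the gene's strand, and the capitals mark the motif or its reverse complement.
Gars: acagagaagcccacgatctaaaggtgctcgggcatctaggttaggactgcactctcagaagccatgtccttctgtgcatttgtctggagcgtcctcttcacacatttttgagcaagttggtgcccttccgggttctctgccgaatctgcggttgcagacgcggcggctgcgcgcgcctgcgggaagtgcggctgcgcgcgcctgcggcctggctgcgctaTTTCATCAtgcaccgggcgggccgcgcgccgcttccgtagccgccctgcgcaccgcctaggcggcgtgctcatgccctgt
Iars: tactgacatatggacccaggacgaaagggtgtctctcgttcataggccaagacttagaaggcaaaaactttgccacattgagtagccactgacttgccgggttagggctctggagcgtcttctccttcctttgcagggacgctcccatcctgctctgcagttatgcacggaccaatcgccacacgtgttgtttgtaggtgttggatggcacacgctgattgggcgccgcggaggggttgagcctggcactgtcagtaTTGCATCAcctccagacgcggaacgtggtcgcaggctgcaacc
Tars: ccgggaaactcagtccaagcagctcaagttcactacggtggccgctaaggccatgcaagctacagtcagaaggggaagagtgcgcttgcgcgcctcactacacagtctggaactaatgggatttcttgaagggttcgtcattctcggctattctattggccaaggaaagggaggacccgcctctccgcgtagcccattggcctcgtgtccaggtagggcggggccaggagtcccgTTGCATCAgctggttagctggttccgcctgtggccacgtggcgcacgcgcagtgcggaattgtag
Yars: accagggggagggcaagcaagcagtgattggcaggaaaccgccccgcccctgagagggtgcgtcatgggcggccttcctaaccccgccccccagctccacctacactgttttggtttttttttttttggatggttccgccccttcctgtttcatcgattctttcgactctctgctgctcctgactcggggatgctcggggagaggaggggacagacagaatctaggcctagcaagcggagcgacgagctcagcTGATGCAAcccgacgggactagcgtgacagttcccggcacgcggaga

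Aars holds 2 copies, at -112 and 10 from the gene start (counted from 1 at the start base), both in reverse orientation. The others hold 1 copy each, at -30 in Gars, 8 in Iars and -15 in Tars in reverse orientation, and at 4 in Yars in forward orientation. The printed regions are chr6:55037751-55038050 for Gars (forward strand), chr13:49681880-49682179 for Iars (forward strand), chr15:11399609-11399908 for Tars (reverse strand) and chr4:129189653-129189952 for Yars (forward strand), all on GRCm38.p6. Of these 5 genes, Aars and Tars were called higher in Label_Enrich than in Label_Input, and Gars (0.00), Iars (0.09) and Yars (0.10) were not. A match describes the letters of the window and no binding was measured.

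The 11 synthetase genes listed as ATF4 targets had 6 higher and 0 lower in Label_Enrich over Label_Input, with a median of 0.15. In Label_Enrich against NonLabel_Enrich they had 2 higher and 1 lower, with a median of -0.01, and in NonLabel_Enrich against Label_Input 4 higher and 0 lower, with a median of 0.14. A list of 13 other ATF4 targets had 3 higher and 6 lower, 2 higher and 3 lower, and 4 higher and 2 lower in the same order of comparisons. Among all tested genes, 14.2% were higher and 14.6% lower, 10.4% higher and 9.63% lower, and 14.8% higher and 14.7% lower in that order. The synthetases on the list had 54.5%, 27.3% and 36.4% called, and the other targets 69.2%, 38.5% and 46.2%, beside 28.7%, 20.1% and 29.5% of all tested genes. The other targets did not share a direction.

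Chac1, a glutathione-degrading enzyme induced by ATF4, had 15.1, 15.3 and 16.1 CPM in Label_Enrich, 36.9, 33.8 and 35.9 CPM in NonLabel_Enrich and 28.3, 26.0 and 24.9 CPM in Label_Input. Its groups did not overlap and Label_Enrich was lowest. Sesn2, another stress target, was at -0.78 ± 0.11 in Label_Enrich against NonLabel_Enrich (edgeR adjusted p = 2.29e-08). Slc7a5, the leucine transporter, was at 0.42 ± 0.05 in Label_Enrich against Label_Input (edgeR adjusted p = 2.29e-09) and at 0.02 ± 0.05 against NonLabel_Enrich (edgeR adjusted p = 0.86), values close to those of Aars. Asns, the asparagine synthetase of metabolism rather than of tRNA charging, was at -0.30 ± 0.07 in Label_Enrich against Label_Input (edgeR adjusted p = 0.00108).

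The values against Label_Input also ran with transcript length. Length here is that of the longest protein-coding transcript annotated for a gene, and whether these cells make that transcript was not examined. The Aars transcript, at 5750 nt the longest of the cytosolic genes, includes 1326 bases identical to Exosc6. Across the 20 cytosolic genes, the value in Label_Enrich against Label_Input had a Pearson r of 0.76 and a Spearman rho of 0.78 with log2 transcript length, beside 0.42 and 0.36 across 11531 tested genes with a length. In NonLabel_Enrich against Label_Input they were 0.74 and 0.80 across the cytosolic genes, beside 0.46 and 0.42, and in Label_Enrich against NonLabel_Enrich 0.16 and 0.18, beside -0.04 and -0.09. Across the 15 mitochondrial genes they were 0.32 and 0.33, 0.48 and 0.46, and -0.05 and -0.03 in the same order. These correlations describe genes within the same 9 libraries, which are not independent replicates. Level also moved with the cytosolic values in Label_Enrich against Label_Input. The Pearson r between log2 mean CPM and log2 fold change was 0.73, beside 0.23 across mitochondrial genes and 0.12 across all tested genes. With the GC percentage of the transcript it was 0.42 across cytosolic, 0.43 across mitochondrial and 0.08 across all tested genes. The parts of length, level and GC were not separated.

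Of the 8 cytosolic genes with a transcript over 3000 nt, 6 rose and 0 fell in Label_Enrich relative to Label_Input, with a median of 0.29. Of the 12 with a shorter transcript, 2 rose and 1 fell, with a median of -0.04. Among all tested genes, 21.4% rose and 7.09% fell of 5953 with a transcript over 3000 nt, with a median of 0.08, and 6.70% rose and 22.0% fell of 5578 with a shorter transcript, with a median of -0.14. After the trend of all tested genes with length was removed, Vars kept 0.68 of its 0.75, Lars 0.30 of its 0.36, Aars 0.33 of its 0.44 and Eprs 0.22 of its 0.31. Aars2 kept 0.61 of its 0.64, while Farsb was at -0.25 in place of -0.34. The cytosolic median was 0.07 before and after. In NonLabel_Enrich against Label_Input the same step left Vars at 0.35 of its 0.43, Aars at 0.33 of its 0.47, Eprs at 0.12 of its 0.24, Lars at 0.12 of its 0.20 and Sars at 0.09 of its 0.15. Nars was at 0.17 in place of 0.16, Farsb at -0.42 in place of -0.52 and Dars at -0.20 in place of -0.28. The part of length in these values was otherwise not tested.

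**Figure D4:**
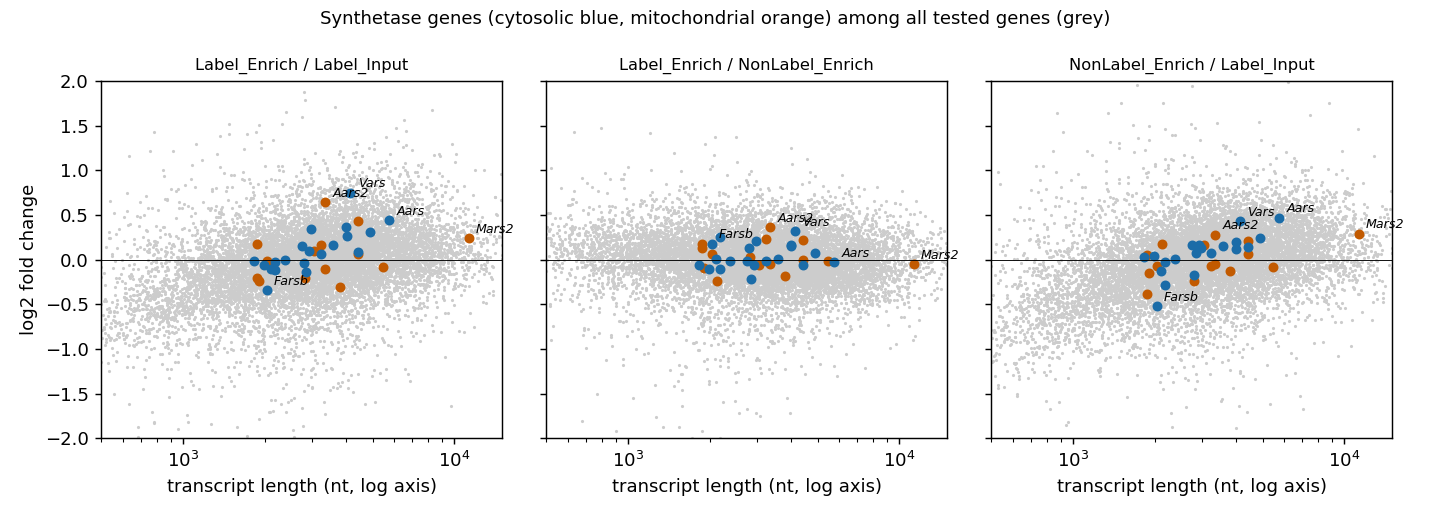
Log2 fold change against transcript length (log axis, nt) in 3 comparisons, for cytosolic (blue) and mitochondrial (orange) synthetase genes among all tested genes (grey); the line marks a log2 fold change of 0 and genes beyond the axes are not drawn. In Label_Enrich against Label_Input the longer cytosolic transcripts lie higher, with Vars at 0.75 and Aars at 0.44, and the short Farsb transcript lies lowest of the cytosolic genes, at -0.34.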

How the data were processed

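The authors deposited unnormalized read counts for each Ensembl gene, and the table of the MC38 12G libraries was used. Per the submitters' processing notes the tools were DESeq2 1.16.1, HTSeq 0.7.2, HISAT2 2.1.0 and cutadapt 1.18, and the mouse build was GRCm39. Per the labels' protocols, RNA was joined to biotin azide, captured on streptavidin beads and made into libraries with a NEBNext Ultra II kit. No source used here says whether counting used strand, how multiply mapped reads were treated or which annotation was counted, so reads of overlapping genes cannot be told apart. Names, exon and transcript lengths came from GENCODE M21, which named 52073 of 56691 features. Mars1 is called Mars there. Transcript length and GC content are those of the longest protein-coding transcript of a gene, or of its longest transcript where none is protein-coding. Promoters came from RefSeq on GRCm38.p6, and protein sequences were not used here.

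All 9 libraries entered 1 fit in edgeR 4.0.16 (R 4.3.3), with TMM factors, the default low-count filter and the 2-sided quasi-likelihood F test, adjusted by Benjamini-Hochberg over 11676 genes and called under 0.05. Where a sentence gives an adjusted p or a call, it comes from this fit. Each SE was obtained as |log2 fold change| over the root of F. Length trends are lowess fits over all tested genes. With 3 libraries a group, an exact permutation test of a single value could not go below 0.1, so none was run. The members and lists were chosen with earlier results of these data known. Genes described library by library were, in each comparison, the called members with the largest fold changes (up to 4 cytosolic and 3 mitochondrial in each direction), the most abundant member of each list and the most abundant that did not pass. Context genes other than the cell-type markers were up to 3 of each list with the smallest p. The markers named were not chosen by p. A few others were named after their values were seen: Qars, Nars2, Mars2 and Rars2 at the ends of a range, and Tufm, Eef1e1, Slc7a5, Asns and Farsa. No source used here says whether replicate numbers pair the samples, and the fit above did not use them. The alternatives were DESeq2 1.42.0 as test or for size factors, both other low-count filters, removal of the 2 most abundant features, a replicate block, only the groups compared, the MC38 3G counts and leaving out each library. The 3G counts were read as a shallower version of the same 9 libraries: 0 features exceeded their 12G count, and the library totals came to 67.8% to 68.9%. HEK293T libraries were not used here, and some genes of the context lists are not reported here.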

Additional observations from a re-analysis of the deposited data

How the results depend on the processing

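Of 27 member calls over the 3 comparisons, 13 were kept under all 17 alternatives, 14 were lost under at least 1, and 0 reversed. Those kept were all calls of Vars, Aars and Eprs, those of Lars and Farsb except the ones named as lost with the results, and those of Mars1, Tars and Aars2 in Label_Enrich against Label_Input. Of 78 member results that were not called, 9 were called under at least 1 alternative. In 35 of 105 member results an estimate changed sign under some alternative, 68 times in all, with neither value called and none over 0.23 in size. Of 408 recomputed counts and medians, 368 stayed within 1.5 times the count given, or for a median within 1 SD between replicates, and 40 moved; the cause was not tested.

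In Label_Enrich against Label_Input, the cytosolic median was 0.11 with the DESeq2 test, 0.18 with no low-count filter and 0.04 in the 3G counts, and the mitochondrial median was 0.09 with no filter. With no filter the median of all shared genes itself moved by 0.10. The cytosolic count called lower was 0 with no filter and 2 with the strict filter and with only the 2 groups compared, and the mitochondrial count called higher was 1 in the 3G counts. In Label_Enrich against NonLabel_Enrich, the cytosolic count called lower was 0 with the DESeq2 test, with no filter and in the 3G counts, the cytosolic count called higher was 3 and the mitochondrial 1 in the 3G counts, and the cytosolic median was 0.03 with no filter. In NonLabel_Enrich against Label_Input, the cytosolic median was 0.13 with the DESeq2 test and 0.17 with no filter, the cytosolic count called lower was 1 with no filter, and the mitochondrial median was 0.02 with no filter.

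Leaving out 1 library at a time, the cytosolic count called lower was 1 to 2 in Label_Enrich against Label_Input, its median 0.03 to 0.09 and the mitochondrial median -0.09 to 0.11. In Label_Enrich against NonLabel_Enrich the cytosolic count called higher was 2 to 5 and called lower 0 to 2, and the mitochondrial count called higher 0 to 3. In NonLabel_Enrich against Label_Input the cytosolic count called lower was 1 to 2, its median 0.07 to 0.13 and the mitochondrial median -0.10 to 0.15. The extreme medians came without a Label_Input library.

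Whether replicate numbers pair the samples is not given. Deviations of same-numbered libraries of different groups correlated between -0.00997 and 0.0235. Those of differently numbered libraries correlated between -0.0233 and 0.0147. Values this small cannot exclude a pairing. With the replicate block, the cytosolic counts in Label_Enrich against Label_Input were 8 higher and 1 lower and no member call changed. The 15 mitochondrial genes summed to 676 to 3085 counts per library and the 20 cytosolic genes to 8322 to 42167; the part of depth in the fewer mitochondrial calls was not tested.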
